A study of Mus musculus with 4 samples.

Results

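Mouse Zfp genes that were named for a CHD4 peak are described here: 33 genes with 34 intervals, of 1517 genes with 1849 intervals in the whole peak list. Members were every gene of that list whose symbol is Zfp followed by a number, apart from Zfp36, Zfp36l1 and Zfp36l2, which encode RNA-binding proteins. Peak rows with the same chromosome, start and end were taken as 1 interval, so 36 peak summits gave the 34 intervals. The choice used the symbols in the list of called peaks and none of the peaks' strengths. CHD4, the motor subunit of the NuRD chromatin complex, was mapped by CUT&Tag, in which an antibody brings a transposase to chromatin and the DNA next to the antibody's target is released for sequencing. There were 2 samples with an antibody against CHD4 and 2 control samples with IgG (an anti-mouse IgG raised in rabbit, labelled HRP), meant to have no target in chromatin. All 4 came from cells labelled spermatogonial, of wild-type C57BL/6 mice, prepared from digested testes. The sources used here give neither the age of the animals nor how the cells were separated from the rest of the testis. A list of peaks holds no expression values, so the labelled cell type could not be checked against marker genes.

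Most Zfp genes encode proteins with a row of C2H2 fingers, short loops in which cysteines and histidines hold a zinc ion and which together read a DNA sequence. Many carry a KRAB domain, which recruits the co-repressor TRIM28 and, through it, histone methylation and heterochromatin, and KRAB zinc finger proteins are best known for silencing transposable elements. Their genes have multiplied by tandem duplication and stand in clusters of similar copies. NuRD, which joins the remodeller CHD4 to the histone deacetylases HDAC1 and HDAC2, is among the complexes that such repressors are known to draw in. The gene names in the peak list give little of the domain type. All 33 read "zinc finger protein" with a number, 1 of them (Zfp184) adds that it is Kruppel-like, and none names the C3H type.

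Promoter windows of the Zfp genes with the highest promoter folds of CHD4 over IgG are shown first, because the intervals there lie on or beside a start of transcription. The windows run from 250 bases before to 50 after a RefSeq transcript start (build GRCm38.p6, whose chromosomes are those of mm10) and are written along the gene. Capitals mark matches, on either strand, to any of 9 short motifs: the GC box (GGGCGG), the box named for its letters CCAAT, the TATA box (TATAAA), the core of ETS factor motifs (CGGAAG), that of the NRF1 motif (TGCGCA), the shared part of cyclic AMP response elements, here the CRE core (TGACGT), the E-box (CACGTG), the core of the ZNF143 motif (ACTACAA) and that of the YY1 motif (AAGATGG). Zfp184 (chr13:21944844-21945143, plus strand), Zfp52 (chr17:21535289-21535588, plus), Zfp583 (chr7:6330385-6330684, minus) and Zfp719 (chr7:43579336-43579635, plus) are 4 of the 5 promoter members of highest fold; the other is Zfp87. Zfp82 (chr7:30072774-30073073, minus) stands for the gene cluster in which most neighbouring members lie. Zfp882 (chr8:71908356-71908655, plus) is not itself named in the list, but the interval named for Zfp617 begins within this window.
Zfp184: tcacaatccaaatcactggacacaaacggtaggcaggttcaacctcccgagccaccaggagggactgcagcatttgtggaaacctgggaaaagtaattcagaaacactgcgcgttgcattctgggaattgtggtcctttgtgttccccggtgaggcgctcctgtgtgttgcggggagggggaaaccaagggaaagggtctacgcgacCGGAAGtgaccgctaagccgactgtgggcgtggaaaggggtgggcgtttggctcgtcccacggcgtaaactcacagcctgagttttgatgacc
Zfp52: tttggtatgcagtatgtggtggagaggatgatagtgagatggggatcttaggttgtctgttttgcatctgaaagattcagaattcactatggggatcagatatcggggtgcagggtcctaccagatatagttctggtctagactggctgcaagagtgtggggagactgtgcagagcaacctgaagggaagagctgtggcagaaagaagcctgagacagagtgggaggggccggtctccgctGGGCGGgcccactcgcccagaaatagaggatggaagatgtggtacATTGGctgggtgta
Zfp583: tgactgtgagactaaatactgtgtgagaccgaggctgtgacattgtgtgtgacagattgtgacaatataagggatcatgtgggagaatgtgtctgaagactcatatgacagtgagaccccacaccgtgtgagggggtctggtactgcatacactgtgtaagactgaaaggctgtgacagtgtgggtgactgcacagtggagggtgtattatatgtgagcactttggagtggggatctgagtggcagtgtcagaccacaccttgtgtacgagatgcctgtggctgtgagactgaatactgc
Zfp719: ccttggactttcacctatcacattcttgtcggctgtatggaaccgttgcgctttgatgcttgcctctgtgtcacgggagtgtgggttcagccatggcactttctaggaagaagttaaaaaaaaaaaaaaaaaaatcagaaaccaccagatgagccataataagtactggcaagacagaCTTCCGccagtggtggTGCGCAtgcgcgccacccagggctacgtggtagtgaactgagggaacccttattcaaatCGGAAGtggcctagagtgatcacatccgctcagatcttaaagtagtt
Zfp82: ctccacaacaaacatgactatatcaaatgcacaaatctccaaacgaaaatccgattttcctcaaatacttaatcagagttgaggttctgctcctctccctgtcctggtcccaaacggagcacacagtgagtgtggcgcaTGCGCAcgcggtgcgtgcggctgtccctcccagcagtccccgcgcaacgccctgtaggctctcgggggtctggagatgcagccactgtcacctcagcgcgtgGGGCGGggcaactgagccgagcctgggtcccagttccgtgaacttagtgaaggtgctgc
Zfp882: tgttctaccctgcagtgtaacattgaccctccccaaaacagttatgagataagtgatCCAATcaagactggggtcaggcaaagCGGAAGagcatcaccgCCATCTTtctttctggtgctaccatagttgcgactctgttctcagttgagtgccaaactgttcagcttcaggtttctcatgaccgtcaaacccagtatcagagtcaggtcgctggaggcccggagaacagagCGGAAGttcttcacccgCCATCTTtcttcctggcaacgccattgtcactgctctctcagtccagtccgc
The Zfp184 window has 1 match, the ETS core 43 bases before the start. In Zfp52 and in Zfp82 a GC box begins 9 bases before the start, and Zfp82 also has the NRF1 core 111 bases before it. Zfp719 has the ETS core on both strands and the NRF1 core between them. In Zfp882 the ETS core followed by the YY1 core occurs as a pair at 167 and 151 bases before the start and again at 19 and 2 bases before it. The motifs of Zfp184 and Zfp52 and the GC box of Zfp82 lay within the CHD4 intervals. Those of Zfp719 and Zfp882 and the NRF1 core of Zfp82 did not, since the intervals take in only 40, 34 and 85 bases of these windows. No motif of the 9 was found in the Zfp583 window, which holds 3 CpG dinucleotides in 300 bases. That window lies under the weaker of the intervals at Zfp583, with a fold of 4.51; the stronger, at 6.44, overlapped none of the RefSeq windows.

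Zfp genes were named for an interval in 33 of 394 protein-coding cases, or 8.38% (exact 95% binomial interval 5.84 to 11.6), where 6.1% of all 21779 protein-coding genes were named. With an interval within 1 kb of the transcript start there were 18 Zfp genes, or 4.57% (2.73 to 7.12), where the share over all protein-coding genes was 2.57%. The difference was not tested, and 361 Zfp genes were not named. An interval's strength is given as its fold, the peak caller's ratio of CHD4 signal to IgG background at the summit with 1 added to both. The fold of the Zfp intervals had a median of 4.95 (distribution-free 95% interval 4.49 to 5.43) and ran from 2.72 to 9.95, and over all intervals the median was 4.76. Of the 34, 20 had a fold of at least the list's median. The caller's q, a p-value adjusted over the genome, was 0.01 or less at 26 of the 34 (76.5%), near the 77.3% of all intervals. The list names no sample, so no interval has a value per sample or an error between replicates. The recovered scale puts the CHD4 data at 2.33 times the IgG fragments. CHD4 fragment numbers are given unscaled, and the IgG expectation at the IgG depth. For the fold the fragment numbers are first multiplied by 0.429, so the 2 numbers printed are not its direct ratio.

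**Figure D1:**
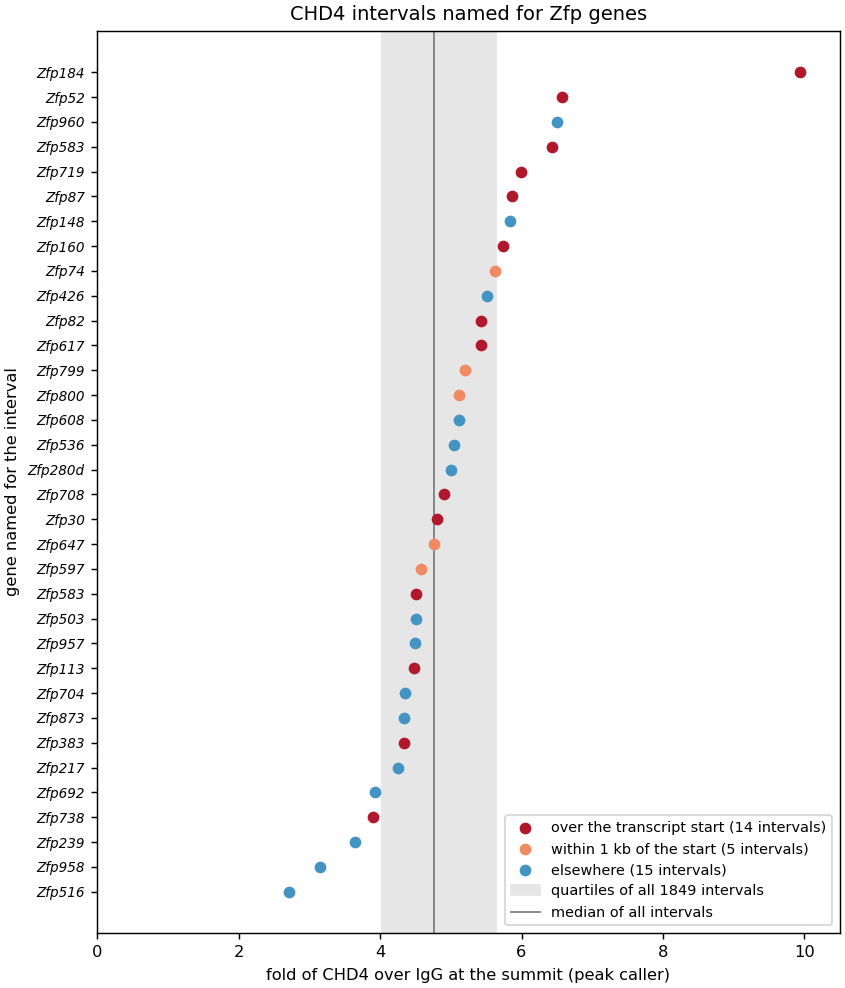
Fold of CHD4 over IgG at each of the 34 intervals named for a Zfp gene (x axis, caller's ratio at the summit; y axis, gene), coloured by position relative to the transcript start. The line and band are the median, 4.76, and quartiles, 4.03 and 5.64, of all 1849 intervals; Zfp184, at 9.95, stands apart from the next member, Zfp52, at 6.57.

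The Zfp intervals lay mainly at promoters. By the authors' annotation 19 of 34, or 55.9% (exact 95% interval 37.9 to 72.8), were within 1 kb of a transcript start, where the share of all intervals was 34.1%. An interval contained the start itself in 14 cases, or 41.2% (24.6 to 59.3), where 15.7% of all intervals did. A further 2, at Zfp503 and Zfp957, were 1 to 2 kb from a start. Distal intergenic sequence held 6 Zfp intervals (17.6%, and 24.7% of all intervals), introns held 3 (8.82%, and 26.7% of all), exons held 3 and the 5′ UTR class held 1. These shares were not compared by a test.

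Zfp184 on chromosome 13 had the highest fold of the family. Its interval (21944687 to 21945581) was 895 bp wide, the widest of the 34, and ranked 17 by fold in the whole list. It had 2 summits. At 53 bp before the start the fold was 9.95, from 38 CHD4 fragments (exact Poisson 95% limits 26.9 and 52.2), and the IgG expectation was 0.738 fragments. At 374 bp after the start the fold was 4.95, from 22 fragments over 1.11. Fragment numbers were recovered from the deposited fold and p, and their intervals cover counting error only. Of the other members, only Zfp239 had an interval with more than 1 summit, so that the share was 2 of 34 (5.88%), where 9.84% of all intervals had 2 or more.

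Zfp583 on chromosome 7 was the only member with 2 intervals, 0.387 kb apart, and each contained a transcript start. The one at 6331167 to 6331568 held 21 fragments at a fold of 6.44. The other, at 6330351 to 6330780, held 14 at 4.51, and the IgG expectation was 0.554 at both. It covers the whole of the Zfp583 window printed above. The Poisson intervals of the fragment numbers, 13 to 32.1 and 7.65 to 23.5, overlap.

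Zfp52 (chromosome 17, 21535506 to 21535762) came next, with 26 fragments over 0.849 and a fold of 6.57. Its interval also overlapped the long non-coding RNA gene 9330136K24Rik. Zfp719 (chromosome 7, 43579596 to 43580002) had the most fragments of any promoter member, 40 (28.6 to 54.5), with a fold of 5.99 over an expectation of 2.03. Zfp87 (chromosome 13, 67525948 to 67526146) had 25 fragments and a fold of 5.86, and Zfp160 (chromosome 17, 21009042 to 21009258) had 16 and 5.74. All of these contained the transcript start.

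Among the other intervals over a start, that of Zfp82 (chromosome 7, 30072478 to 30072858) held 23 fragments at a fold of 5.43. Zfp30 (chromosome 7, 29784024 to 29784284) had 4.80 from 13, the fewest of any promoter member. Zfp113 (chromosome 5, 138155518 to 138155709) had 4.48 from 29. Zfp383 (chromosome 7, 29908408 to 29908732) had 4.33 from 28, and Zfp738 (chromosome 13, 67683298 to 67683611) had 3.91 from 25, the lowest fold at a Zfp promoter. Between Zfp30 and Zfp738 the order by fold is the reverse of the order by fragments, because the IgG expectation was 0.369 at Zfp30 and 2 at Zfp738.

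Beside the start, but not over it, were 5 intervals. Zfp74 (chromosome 7, 29953764 to 29954051), 36 bp from the start, held 37 fragments at a fold of 5.62. Zfp799 (chromosome 17, 32829975 to 32830193) and Zfp800 (chromosome 6, 28261711 to 28261901) each had 14 fragments, with folds of 5.20 and 5.11, at 22 and 10 bp. Zfp647 (chromosome 15, 76925824 to 76926035), at 376 bp, was the farthest from its start, with 4.77 from 17. At Zfp597 (chromosome 16, 3884290 to 3884543) the fold was 4.57 from 30 fragments, 18 bp from the start. That interval also lay within Naa60, which encodes an amino-terminal acetyltransferase, and reached the window of a Naa60 transcript start, so the list's name does not decide between the 2 genes.

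The summits stood close to the start. Over the 19 promoter intervals the median distance from summit to start was 76 bp (95% interval 38 to 139), where it was 170 bp (157 to 182) over all 631 promoter intervals. The summit was downstream of the start in 13 of 19 (68.4%, 43.4 to 87.4) and in 304 of all 631 (48.2%, 44.2 to 52.2). The farthest downstream was that of Zfp719, at 275 bp. The farthest upstream was that of Zfp647, at 534 bp, and no other Zfp promoter summit was more than 76 bp upstream.

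**Figure D2:**
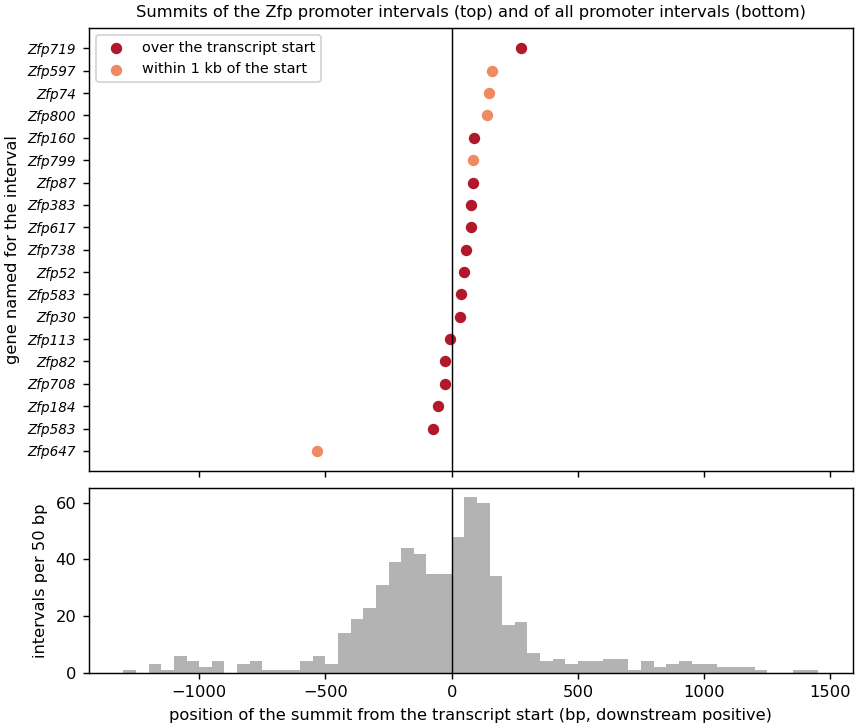
Position of the CHD4 summit relative to the authors' transcript start (x axis, bp, downstream positive) for the 19 Zfp promoter intervals (top, 1 point per interval, by gene) and for all 631 promoter intervals (bottom, count per 50 bp). The Zfp summits lie between 76 bp upstream and 275 bp downstream, apart from Zfp647, at 534 bp upstream.

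The promoter intervals of Zfp genes rested on low IgG background. Their median IgG expectation was 0.849 fragments (95% interval 0.369 to 2), where it was 2.4 (2.03 to 2.95) over all promoter intervals, and none exceeded 2.03. Their median number of CHD4 fragments was 25 (15 to 29), where it was 34 (32 to 36) over all promoter intervals. The median fold was 5.20 (4.57 to 5.86), where it was 4.32 (4.18 to 4.42). Fragment number and background were thus lower, and fold higher, than the medians of all promoter intervals. Fold is computed from these 2 numbers, and a peak over low background needs a higher fold to be called. The medians are therefore not separate results. Within the family the promoter intervals had a median fold of 5.20 and the 15 others 4.49 (3.92 to 5.11), while over the whole list promoter intervals had the lower median, 4.32 to 4.98 elsewhere. The intervals of the 2 Zfp medians overlap, and whether the family differs from the list in this was not tested. Of the 34 intervals, 13 (38.2%, 22.2 to 56.4) had fewer than 20 fragments, where 25.6% of all intervals did. At Zfp799 and Zfp148 the expectation was 0.346, the lowest value in the list, which is the floor of the background and not a local IgG count. It was 0.369, close to that floor, at the promoter intervals of Zfp160, Zfp617, Zfp800 and Zfp30 and at those of Zfp608 and Zfp957.

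**Figure D3:**
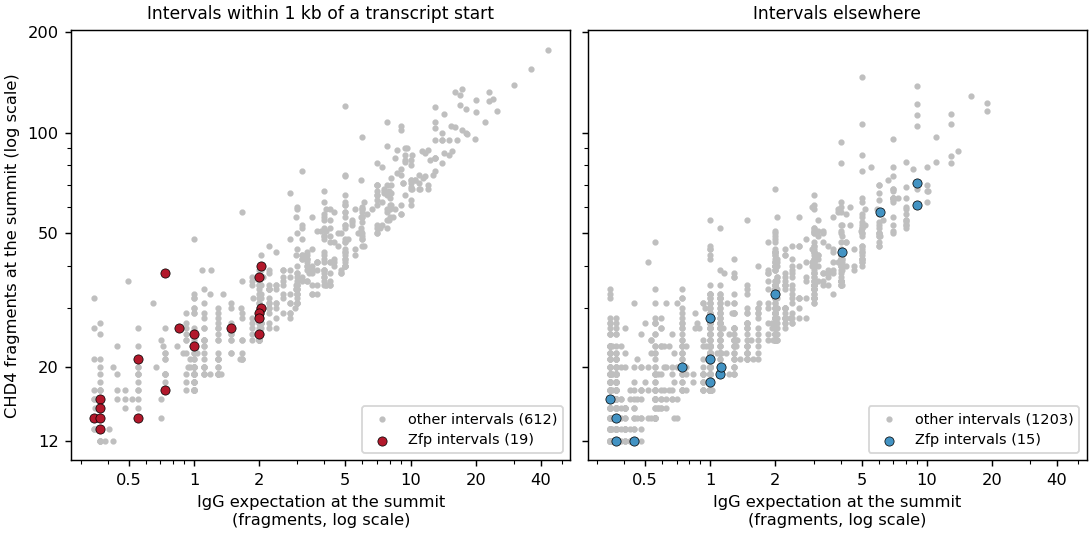
CHD4 fragments at the summit (y axis, log scale) against the IgG expectation there (x axis, fragments, log scale) for intervals within 1 kb of a transcript start (left) and elsewhere (right), 1 point per interval, with Zfp intervals coloured. CHD4 fragments are unscaled, and the expectation is at the IgG depth. The 19 Zfp promoter intervals lie at an expectation of 2.03 or less, while all promoter intervals reach 43.

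The promoters of these Zfp genes were also lower in G and C than those of all genes with a promoter interval. RefSeq promoter windows were matched for 27 of the 33 named genes, 16 of the 18 with a promoter interval, 329 of all 394 Zfp genes and 17492 protein-coding genes; where a gene has several, the one under an interval was used. The 16 windows had a median of 53.5% G and C and 11.5 CpG dinucleotides. Over the 463 protein-coding genes with a promoter interval and a window the medians were 60.3% and 21. Over all Zfp windows they were 54.3% and 13. The highest of the 16 was Zfp800, with 77.3% and 41 CpG, and the lowest in G and C was Zfp708, with 44.7%. Not all of the 16 windows lay under an interval: those of Zfp160, Zfp30, Zfp597, Zfp617, Zfp708 and Zfp799 did not. The RefSeq starts used for Zfp708 and Zfp617 lay 10.4 and 14 kb from the intervals. The 12 Zfp windows under an interval, which include those of Zfp27 and Zfp882, had medians of 52.8% and 11.5 CpG. All 342 windows under an interval had 60.7% and 21. The part of base composition in the lower IgG expectation was not tested.

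**Figure D4:**
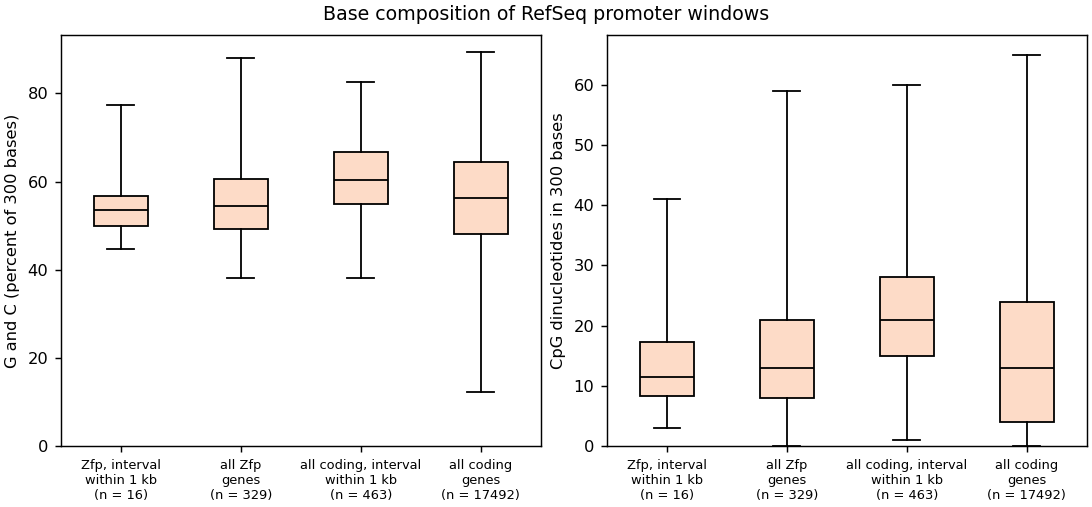
Percentage of G and C (left) and number of CpG dinucleotides (right) in RefSeq promoter windows of 300 bases, by gene set, each gene once; lines are medians, boxes quartiles and whiskers the lowest and highest values. The 16 Zfp windows have a median of 11.5 CpG, where the 463 windows of all genes with a promoter interval have 21. Not every window lies under an interval.

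The GC box was found in 5 of the 16 Zfp windows (31.3%, exact 95% interval 11 to 58.7), in 44.1% of all Zfp windows, in 46.4% of all protein-coding windows and in 69.3% (64.9 to 73.5) of those of genes with a promoter interval. Counting only windows that an interval overlaps, it was in 3 of 12 Zfp windows (25%, 5.49 to 57.2) and in 251 of 342 in all (73.4%, 68.4 to 78.0). The GC box consists of G and C, in which the windows of all genes with a promoter interval are richer. The ETS core was found in 5 of the 16 (31.3%, 11 to 58.7), in 35.9% of all Zfp windows, in 36.1% of the windows of genes with a promoter interval and in 21.5% of all protein-coding windows. The CCAAT box was in 7 of the 16 (43.8%), in 49.5% of all Zfp windows, in 40.2% of those of genes with a promoter interval and in 39.1% of all protein-coding windows. For the NRF1 core, in 4 of the 16 (25%), these shares were 10.9%, 17.9% and 10.1%. For the YY1 core, in 2 of the 16 (12.5%), they were 8.51%, 6.70% and 6.37%. The TATA box, the CRE core and the E-box were in 1 window each (shares of all protein-coding windows 13.3%, 8.74% and 7.90%), and the ZNF143 core in none, where 3.84% of all protein-coding windows hold it. The GC box and the ETS core can overlap. A match describes these letters only.

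Zfp genes with intervals stood both in clusters and alone. Zfp genes whose starts follow each other within 500 kb were taken as a run, which put 268 of the 394 into 50 runs and left 126 alone. Of the genes in runs 22 were named (8.21%, 5.22 to 12.2), and of those alone 11 (8.73%, 4.44 to 15.1). The named genes in runs had a promoter interval in 16 of 22 cases (72.7%, 49.8 to 89.3). Those alone had one in 2 of 11 (18.2%, 2.28 to 51.8), at Zfp184 and Zfp800. This division was drawn with the values in view and was not tested. The exact intervals overlap slightly.

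On chromosome 7 the run from Zfp84 to Zfp146 (29768552 to 30169775) holds 15 Zfp genes in 401 kb, and 4 of them were named, Zfp30, Zfp383, Zfp74 and Zfp82. All 4 intervals were at promoters, with folds from 4.33 to 5.62. The gaps between the starts of these genes were 124, 24.4 and 123 kb. Another interval in the run (29906284 to 29906522) had 25 fragments and a fold of 4.73. It was named for the microRNA gene Mir7668 and lay over Zfp27, 1.89 kb from that of Zfp383. All 5 intervals of this run therefore overlapped a Zfp gene, though the part of the run that Zfp genes fill was not computed. Along the runs on chromosomes 13 and 17 described next, the intervals named for Ptdss1, Zfp708 and 6330415G19Rik overlapped no Zfp gene. The other 10 Zfp genes of the run had no interval over them.

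On chromosome 13 the run from Zfp640 to Zfp273 (66670274 to 67827000) holds 24 Zfp genes, the most of any run, and 3 were named, Zfp708, Zfp87 and Zfp738, each at a promoter. The interval named for Zfp708 (67108326 to 67108684) held 26 fragments at a fold of 4.90. It contained the transcript start the authors used for Zfp708, but lay 10.4 kb outside the RefSeq bounds of that gene and within Rslcan18, another KRAB zinc finger gene of the cluster. On chromosome 17 the run from Zfp160 to Zfp13 holds 23 Zfp genes, and those named were Zfp160 and Zfp52, 525 kb apart. Together chromosomes 7, 13 and 17 carried 15 of the 33 named genes. They also carry the most Zfp genes, 92, 37 and 45, of which 7.61%, 10.8% and 8.89% were named. Of all protein-coding genes on these chromosomes 5.53%, 8.32% and 6.68% were named. Chromosome 4 has 27 Zfp genes and the X chromosome 9, and none of these was named. The shares over all protein-coding genes there were 5.30% and 1.87%. Chromosomes 1, 12 and 19, with 4, 5 and 3 Zfp genes, also had none named. The sources used here do not say how reads that map to several similar copies were handled, so an unnamed gene in a run is not shown to lack CHD4.

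**Figure D5:**
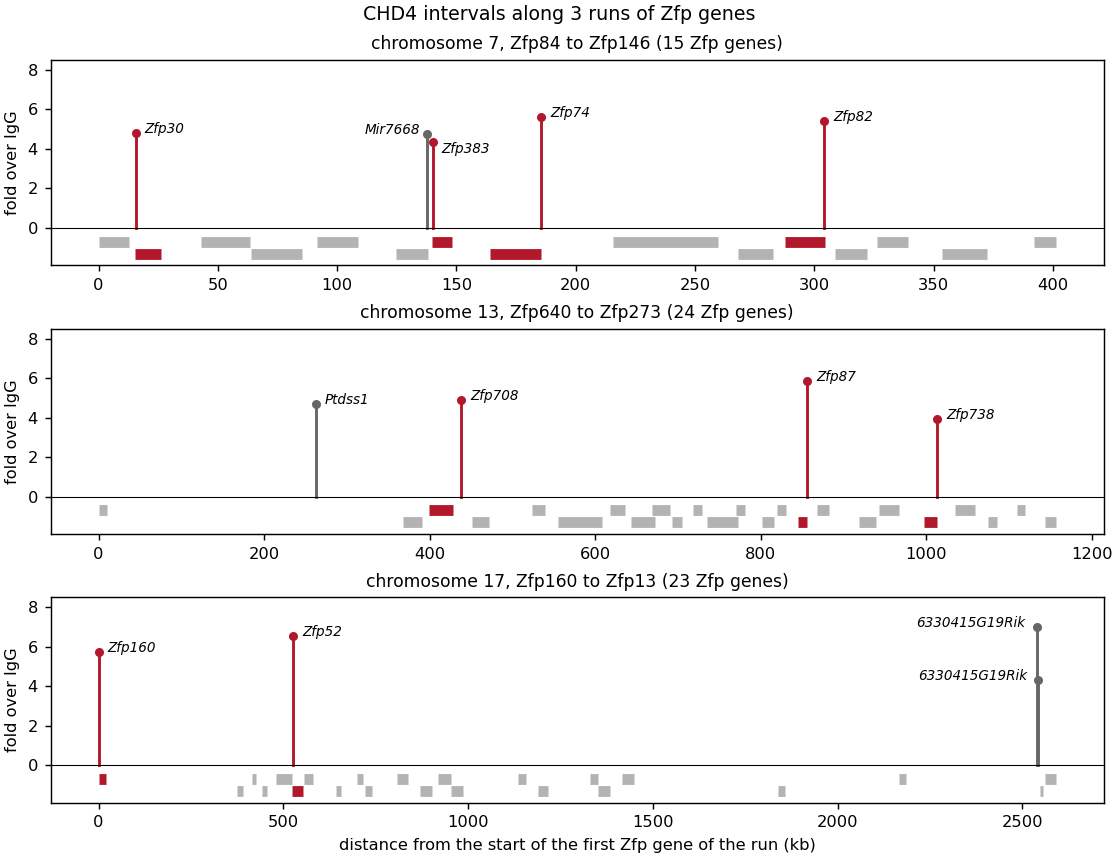
CHD4 intervals (stems, height is the fold over IgG) along 3 runs of Zfp genes (bars, named genes in red, others grey, on 2 levels to keep neighbours apart), by distance from the start of the first gene of the run (x axis, kb). Grey stems are intervals named for genes that are no members; the Zfp708 stem stands outside its own gene, and the Mir7668 stem stands over the Zfp gene beside Zfp383.

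The gene named was not always the gene under the peak. Of the 34 intervals 21 overlapped the RefSeq gene they were named for, 6 overlapped only other genes and 7 overlapped none. The interval named for Zfp617 (chromosome 8, 71908622 to 71908845; fold 5.43 from 15 fragments) lay over Zfp882 and 14 kb outside Zfp617. The interval named for Zfp426 (chromosome 9, 20499484 to 20499882; fold 5.51 from 20 fragments) lay in an exon of Zfp266, which the annotation gives as exon 9 of 9, 6.74 kb from Zfp426. The interval named for Zfp873 (chromosome 10, 82083353 to 82083547; 4.34 from 19) was in the 5′ UTR class, over the RefSeq promoter window and body of BC024063. It lay 5.63 kb from Zfp873 and 24.9 kb from the start used for that gene. Intervals named for Zfp239 and Zfp958 lay over the long non-coding RNA genes Gm38883 with Gm38882, and Gm6410. Counted by gene body instead, 24 of 394 Zfp genes had an interval (6.09%, 3.94 to 8.93), where 4.29% of all protein-coding genes did. The median gene length was 18.1 kb over the Zfp genes and 17.2 kb over all protein-coding genes. Of these, 4 were not named themselves, which were Zfp882, Zfp266, Zfp27 and Zfp524, the last under an interval named for its neighbour Fiz1 (chromosome 7, 5014841 to 5015319; fold 5.54 from 75 fragments). By RefSeq promoter window, 12 of 329 Zfp genes were under an interval (3.65%, 1.90 to 6.28), where 1.96% of all protein-coding genes were.

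Among the members outside promoters the highest fold, 6.5, was at the interval named for Zfp960 (chromosome 17, 17004732 to 17004945). It held 28 fragments, with an IgG expectation of 1, but lay 59.2 kb from that gene. It overlapped no gene body, only the promoter window of Gm51425. Zfp148, a Kruppel-type factor that binds GC-rich sequence, had an interval in intron 4 (chromosome 16, 33441166 to 33441403), 40.7 kb from the start, with 5.84 from 16 fragments. Zfp608 (chromosome 18, 54985643 to 54985896) had one within the gene, in an exon of another annotated transcript, 4.28 kb from the start, with 5.11 from 14. The interval named for Zfp536, which restrains neuronal differentiation, lay 64.1 kb from its start (chromosome 7, 37837693 to 37838006), with 5.05 from 33. That named for Zfp280d lay 77.4 kb away, the farthest of the family, with 5 from 21.

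The other members with no interval within 1 kb of a start, apart from Zfp426 above, had lower folds. Zfp503, a developmental repressor also called NOLZ1, had an interval inside the gene, 1.53 kb from its start, with a fold of 4.50 from 20 fragments. Zfp957 and Zfp217 had 12 fragments each, with folds of 4.49 and 4.26. Zfp217, which works with the LSD1 and CtBP co-repressors, had its interval 5.79 kb upstream of the start. Zfp704 had an intronic interval with 4.36 from 18 fragments and a q of 0.0442, the largest of the family. The interval of Zfp692, 4.16 kb upstream, had 3.92 from 44 fragments and was the only 1 of the 34 with a transfer RNA gene within 3 kb. The lowest folds were those of the intervals named for Zfp239 at 3.65, Zfp958 at 3.14 and Zfp516, a factor of brown fat, at 2.72. These held 58, 71 and 61 fragments, the most of the family, over IgG expectations of 6.09, 9 and 9. They lay 16.3, 51.7 and 68.6 kb from the starts of these genes. The Zfp516 interval was in an intron, and that named for Zfp239 lay 6.58 kb outside the gene. That named for Zfp958 (chromosome 8, 4677516 to 4677748) was in the exon class, 44.9 kb outside the gene. No Zfp interval overlapped a gene for a small nuclear, small nucleolar, transfer or 7S RNA (0 of 34, exact upper limit 10.3%), where 2.49% of all intervals did.

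Genes that work with KRAB zinc finger proteins, or belong to NuRD, were counted in the same way. Of 31 such genes 4 were named (12.9%), where the background was 6.1%. This number is too small for a comparison, and none was tested. Hdac1 and Hdac2, the NuRD deacetylases, had promoter intervals with folds of 9.18 and 5.84. Daxx, a chaperone of histone H3.3, had a promoter interval with 2.97 from 43 fragments over 5.54. Atf7ip, a partner of the methyltransferase SETDB1, had an interval of fold 9.5 at 6.45 kb. All the others, among them Trim28, Setdb1, Chd4 and the Mta, Mbd, Gatad2 and Rbbp genes of NuRD, were not named. In 13 other families picked by symbol, from BTB and KLF factors to RING and CCCH proteins, 20 of 257 genes were named (7.78%). Of the 257, 8 were named at a promoter, where 2.57% of all protein-coding genes were. Among the families with C2H2 fingers, 5 of 17 Klf, 2 of 14 Prdm, 3 of 41 Zbtb, 0 of 11 Zkscan and 0 of 16 Zscan genes were named, numbers too small to rank them. The Zfp36 genes, which encode RNA-binding proteins and were left out of the members, were all named, with folds from 2.83 to 6.05, and 2 of the 3 had a promoter interval, at IgG expectations of 7.38 and 8.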

How the data were processed

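CUT&Tag was done on 2 CHD4 and 2 IgG samples. MACS2 2.1.2, Bowtie2 2.2.5, Trim Galore 0.5.0 and build mm10 are listed in the submitters' processing notes. The sources used here do not say in what order, how replicates were combined or how duplicate reads were handled. The deposited file is 1 annotated peak list without values per sample. Its deposited values are a ratio (fold of CHD4 over IgG), its log2, a peak score, −log10 p and −log10 q (headers lost, read by column order), positions and distances. The largest q was 0.0492.

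Rows were collapsed to intervals, each with its summit of highest fold. Fragment numbers were recovered by taking the fold as scaled CHD4 fragments plus 1 over IgG expectation plus 1, and p as a Poisson tail. A scale of 0.429 gave 1 solution at each of 2066 summits to within 0.0005 on −log10 p. It was taken as the largest scale that fits. Whole-number fractions of it fit too and would give larger fragment numbers. The method was tested on simulated data. Gene bounds and promoter windows came from RefSeq GRCm38.p6, and 340 genes starting before 3 Mb were left out, as such positions mostly belong to unplaced sequence. Shares have exact (Clopper-Pearson) 95% intervals and medians have intervals from order statistics; both treat intervals as independent, which neighbouring ones are not. No test was run: there is no value per sample. Named genes: all members are accounted for. Promoter members, the 5 members of highest fold outside promoters, those with several intervals, an exon or a UTR class, and close neighbours are given in full. The members and lists were chosen with earlier results of these data known. Python 3.11.15, pandas 2.3.3 and scipy 1.17.1 were used.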

Additional observations from a re-analysis of the deposited data

How the results depend on the processing

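The count of 33 named Zfp genes fell to 20 when only folds of at least the list's median were kept and to 18 with promoter intervals alone. Under the other 7 alternatives it lay between 22 and 36. The shares at promoters and over a start stayed within their exact intervals under all alternatives run, at 53.1% to 70% and 36.8% to 50%. The median fold of 4.95 was 5.47 among folds of at least the list's median, which the selection itself raises, and 9.87 as a fragment ratio without the added 1; it lay between 4.93 and 5.16 otherwise. The median of 22 fragments lay between 21 and 26. Of the named Zfp genes, 7 had another within 500 kb, 2 within 100 kb and 9 within 1 Mb. With motifs counted on the gene's own strand only, the YY1 core was in 0% of the 16 windows. The ratio without the added 1, the RefSeq window count and the count without intervals over other genes were chosen after seeing the data. Finger and KRAB patterns in the proteins, planned, were not run. No paired analysis was possible because the list holds no value per sample; for the same reason no replicate could be left out. Depth limits single intervals: 13 of the 34 rest on fewer than 20 fragments.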
